A study of Mus musculus with 2 samples.

Results

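The promoters of 5 genes were examined, *Nanog*, *Pou5f1*, *Sox2*, *Klf4* and *Myc*, which encode the transcription factors most closely tied to the pluripotent state. They were chosen by name, and KDM2A and input tags were counted around 1 start site for each, out of 27025 genes with a start in the RefSeq promoter table. The start sites, given to the nearest 100 bp in the mm9 coordinates of the deposited files, were chr6:122657600 for *Nanog*, chr17:35643000 for *Pou5f1*, chr3:34548900 for *Sox2*, chr4:55545300 for *Klf4* and chr15:61816900 for *Myc*. *Klf4* lies on the minus strand and the other 4 genes on the plus strand, and all distances run along the gene. The study provided 1 chromatin immunoprecipitation library, made with an antibody specific for KDM2A, and 1 library of input DNA. Both came from mouse V6.5 embryonic stem cells (ESCs), a line derived from a cross of C57BL/6 and 129/sv mice whose strain is entered as C57BL/6 alone, with no genetic change or treatment. The cells were grown on fibroblast feeders and passaged without feeders before fixation. Gene expression was not measured in these libraries, so the cell type could not be checked against its markers.

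KDM2A removes methyl groups from lysine 36 of histone H3, mainly from the dimethylated form. Its zinc finger CxxC (ZF-CxxC) domain binds DNA at CpG dinucleotides that carry no methyl group, and such CpGs are concentrated in CpG islands, the CpG-rich stretches found at many promoters. The 5 factors have different places in the pluripotency network. OCT4, the product of *Pou5f1*, and SOX2 bind DNA together at many genes active in ESCs, NANOG is a homeodomain protein that stabilises self-renewal, and KLF4, a zinc finger protein, and MYC, a basic helix-loop-helix protein that drives growth and proliferation, complete the classical reprogramming set with OCT4 and SOX2. The comparison asked whether KDM2A was present at each of these promoters, how far it extended and how it compared with the DNA around the gene.

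The DNA that lies before the start of these genes differed widely in CpG content. The sequences below are the 250 bases upstream of the outermost RefSeq start, in GRCm38.p6, and are shown because CpG is the dinucleotide read by the ZF-CxxC domain. Each CpG is in capitals. They cover chr6:122707239-122707488 (plus strand), chr17:35505782-35506031 (plus strand), chr3:34649745-34649994 (plus strand) and chr4:55532476-55532725 (minus strand). These coordinates belong to GRCm38.p6 and are not those of the tags.
Nanog: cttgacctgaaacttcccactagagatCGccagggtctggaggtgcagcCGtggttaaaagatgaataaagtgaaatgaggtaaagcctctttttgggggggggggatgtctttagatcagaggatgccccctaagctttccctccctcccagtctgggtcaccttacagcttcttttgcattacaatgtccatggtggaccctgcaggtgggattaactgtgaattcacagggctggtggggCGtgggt
Pou5f1: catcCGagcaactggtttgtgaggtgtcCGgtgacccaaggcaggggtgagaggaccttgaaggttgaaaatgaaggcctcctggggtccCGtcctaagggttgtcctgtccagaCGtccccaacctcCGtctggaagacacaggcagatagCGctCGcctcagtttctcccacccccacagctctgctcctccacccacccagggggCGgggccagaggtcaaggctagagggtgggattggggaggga
Sox2: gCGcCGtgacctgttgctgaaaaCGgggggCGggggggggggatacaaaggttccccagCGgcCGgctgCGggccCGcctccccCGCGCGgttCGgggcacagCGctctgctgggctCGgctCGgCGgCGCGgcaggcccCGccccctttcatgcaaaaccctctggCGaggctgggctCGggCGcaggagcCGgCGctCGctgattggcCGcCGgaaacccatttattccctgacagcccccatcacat
Klf4: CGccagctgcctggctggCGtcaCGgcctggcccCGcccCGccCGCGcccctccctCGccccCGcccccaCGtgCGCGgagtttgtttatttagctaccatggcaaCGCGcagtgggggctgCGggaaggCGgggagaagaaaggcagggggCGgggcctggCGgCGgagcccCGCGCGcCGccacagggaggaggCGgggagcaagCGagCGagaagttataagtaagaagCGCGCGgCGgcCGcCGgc
The 250 bases held 3 CpGs at *Nanog*, 8 at *Pou5f1*, 27 at *Sox2* and 32 at *Klf4*. In the full 300 base windows of the table, which run 50 bases past the start, the counts were 4, 11, 27 and 40. Of all 32851 promoter windows of this length, 94.6% held at least 1 CpG and the median was 7. At least as many CpGs as at *Nanog* were found in 68.6% of them, as at *Pou5f1* in 41.4%, as at *Sox2* in 15.5% and as at *Klf4* in 3.91%. *Nanog* and *Pou5f1* each have a second start in the table, whose windows held 4 and 6 CpGs, and 56.4% of all windows held at least 6. At the outermost start, the ratio of observed to expected CpG was 0.192 at *Nanog*, 0.374 at *Pou5f1*, 0.819 at *Sox2* and 0.974 at *Klf4*. The windows of *Sox2* and *Klf4* passed the usual limits for a CpG island, a GC content over 50% and a ratio over 0.6, as did 33.3% of all windows, whereas those of *Nanog* and *Pou5f1* did not.

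**Figure D1:**
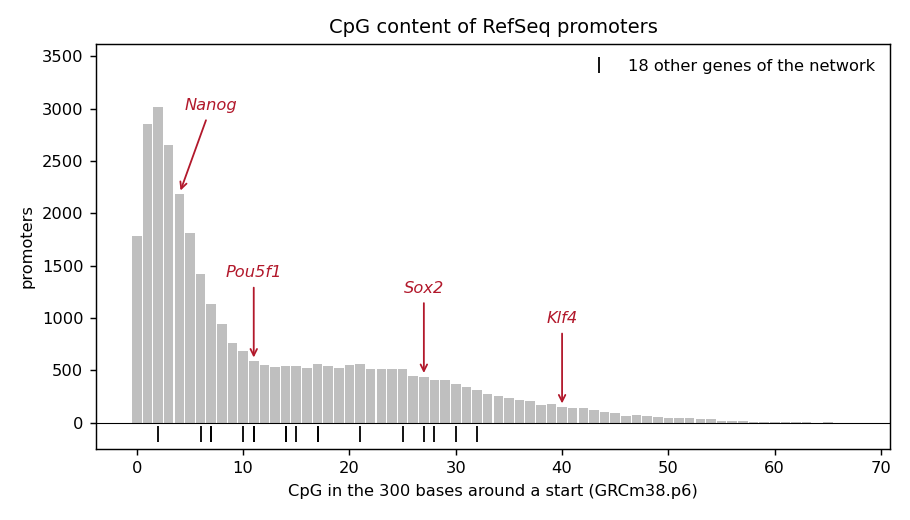
Number of CpGs (horizontal axis) in the 300 bases around RefSeq starts of GRCm38.p6, with the number of promoters as grey bars, arrows at *Nanog*, *Pou5f1*, *Sox2* and *Klf4* and ticks at 18 other genes of the pluripotency network. *Nanog* lies among the many CpG-poor promoters with 4 CpGs, and *Klf4* lies in the right tail with 40.

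The same feature was read for other genes of the pluripotency network. Of 26 such genes listed, 18 were matched in the promoter table, and the outermost start of each was taken. Their windows held between 2 CpGs, at *Nr5a2*, which encodes a nuclear receptor, and 32, at *Klf2*, a relative of *Klf4*, with a median of 14.5, and 8 of the 18 passed both limits. A second start of *Nr5a2* held 7. *Tcf3*, with 25 CpGs, was among the 8 that passed. Genes were matched by symbol alone, and whether this symbol names the gene of the network was not checked. As many CpGs as at *Sox2* or more were present in 4 of the 18, and as many as at *Klf4* in 0. At the other end, 17 of the 18 held at least as many CpGs as *Nanog*, and 13 at least as many as *Pou5f1*. KDM2A tags were not counted at these genes, because their start sites in mm9 were not used here.

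The KDM2A library held 10042076 tags and the input library 9760426, of which 4.75% and 20.4% were further copies of a position and strand already seen. Tags were moved 50 bp toward the 3′ side on each strand and counted in 250 bp bins. Across the genome, a bin was called enriched when its KDM2A tags exceeded the larger of the genome mean (0.991 tags) and the scaled input of the surrounding 5 kb, by a one-sided exact Poisson test with Benjamini-Hochberg adjustment over all 10130200 bins and a limit of 0.01. This rule called 1.05% of all bins. With KDM2A and input exchanged it called 0.144%, and with each position and strand counted once 0.97% and 0.00328%. It called 0.613% at a stricter limit of 0.0001, 1.7% of 500 bp bins, 1.04% with tags left unmoved and 1.05% again when the grid of bins was displaced. Called bins at most 500 bp apart were joined into clusters, whose height is the count of KDM2A tags in their tallest bin. There are no replicates, every p-value compares these 2 libraries and not the conditions they stand for, and intervals cover counting error only.

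KDM2A clusters covered the start sites of *Sox2*, *Klf4*, *Pou5f1* and *Myc*, with more tags near the start at the first pair than at the second, and none covered that of *Nanog*. Within 1 kb on either side of the start site the KDM2A library held 118 tags at *Klf4* (95% exact Poisson interval 97.7 to 141), 117 at *Sox2* (96.8 to 140), 62 at *Pou5f1* (47.5 to 79.5), 61 at *Myc* (46.7 to 78.4) and 33 at *Nanog* (22.7 to 46.3). Input tags in these windows numbered 10, 9, 6, 5 and 22. Input density was 11.0 tags per kb at *Nanog*, against 5.44 in the DNA from 5 to 55 kb away. At the 4 genes with a KDM2A cluster over the start it was 2.5 to 5.0, against 4.87 to 5.81. At *Klf4* the values were 5.0 and 4.92, so input was not low there. *Nanog*, the gene with the fewest KDM2A tags, thus had the most input. KDM2A made up 92.2% of the tags of both libraries at *Klf4* (95% exact binomial interval 86.1% to 96.2%), 92.9% at *Sox2* (86.9% to 96.7%), 92.4% at *Myc* (83.2% to 97.5%), 91.2% at *Pou5f1* (81.8% to 96.7%) and 60.0% at *Nanog* (45.9% to 73.0%).

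In the order of the 2 kb windows, *Klf4* and *Sox2* did not differ beyond counting error, nor did *Pou5f1* and *Myc*. The ratio of KDM2A tags was 1.01 for *Klf4* over *Sox2* (95% exact interval 0.774 to 1.31) and 1.02 for *Pou5f1* over *Myc* (0.702 to 1.47). Each step between these pairs and *Nanog* was larger than counting error. *Sox2* held 1.89 times as many tags as *Pou5f1* (1.38 to 2.61), and *Myc* held 1.85 times as many as *Nanog* (1.19 to 2.92). Of the 10 pairs of genes, the interval held 1 in these first 2 pairs and in no other. Among all 2 kb windows of the genome, 0.163% held as many KDM2A tags as *Klf4* or more, 0.167% as *Sox2*, 0.916% as *Pou5f1*, 0.946% as *Myc* and 2.90% as *Nanog*.

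**Figure D2:**
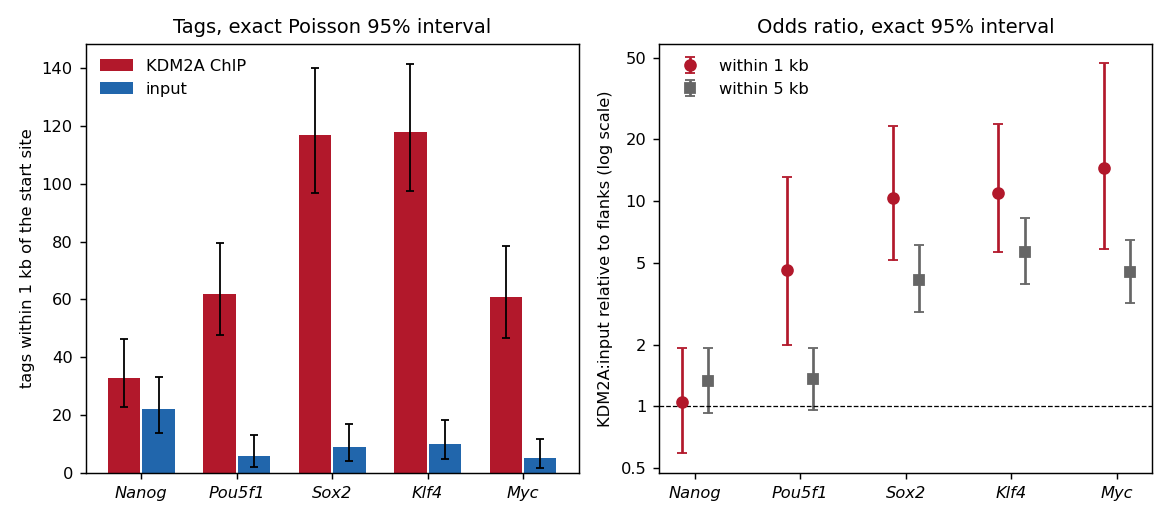
Left, KDM2A (red) and input (blue) tags within 1 kb of each start site with exact Poisson 95% intervals. Right, the KDM2A to input ratio within 1 kb (red circles) and 5 kb (grey squares) relative to the flanks, on a log axis with exact 95% intervals, which hold 1 at *Nanog* in both windows and at *Pou5f1* in the wider one.

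The flanks of each gene, from 5 to 55 kb on both sides, gave the local background. Of the tags of both libraries in the flanks, KDM2A made up 45.6% at *Myc*, 51.8% at *Klf4*, 55.8% at *Sox2*, 58.7% at *Nanog* and 69.2% at *Pou5f1*. The background itself therefore differed between genes. Relative to the flanks, the KDM2A to input ratio within 1 kb was 14.5 times higher at *Myc* (95% exact interval of the odds ratio 5.83 to 46.8), 11.0 times at *Klf4* (5.67 to 23.7), 10.3 times at *Sox2* (5.19 to 23.3) and 4.61 times at *Pou5f1* (1.98 to 13.1). At *Nanog* it was 1.06 times the flanks (0.591 to 1.93), an interval that holds 1. It ended just below that of *Pou5f1* and overlapped it with each position and strand counted once (0.552 to 1.97 against 1.73 to 13.8), with tags left unmoved (0.597 to 1.99 against 1.64 to 8.44) and within 500 bp (0.35 to 1.96 against 1.36 to 11.4). The intervals were apart with 25 kb flanks (0.527 to 1.77 against 2.48 to 16.6) and with the ratio of the whole libraries (0.825 to 2.62 against 4.36 to 28.4). They were also apart with called clusters left out of the flanks (0.697 to 2.29 against 3.39 to 22.8), where the ratio at *Pou5f1* was 7.95. On this scale *Myc* stood as high as *Sox2* and *Klf4* although it had fewer tags, and the intervals of these 3 genes overlap widely.

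Within 5 kb, the whole width examined, KDM2A and input held 250 and 41 tags at *Klf4*, 204 and 39 at *Sox2*, 186 and 49 at *Myc*, 158 and 52 at *Pou5f1* and 104 and 55 at *Nanog*. The ratio relative to the flanks was 5.66 at *Klf4* (3.96 to 8.27), 4.53 at *Myc* (3.20 to 6.5), 4.15 at *Sox2* (2.88 to 6.11), 1.35 at *Pou5f1* (0.965 to 1.93) and 1.33 at *Nanog* (0.933 to 1.92). At *Pou5f1* the interval thus held 1 in this window. When called clusters and 1 kb around them were left out of the flanks, it rose to 2.34 (1.63 to 3.39) at *Pou5f1* and to 1.58 (1.10 to 2.28) at *Nanog*.

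In all, 44 of the 196 whole bins within 5 kb of the 5 start sites were called (22.4%), compared with 1.05% of all bins. They were 13 at *Klf4*, 13 at *Myc*, 11 at *Sox2*, 5 at *Pou5f1* and 2 at *Nanog*. All 5 genes had at least 1, as did 13.7% of all 10 kb windows of the genome. A called bin lay wholly within 1 kb at 4 genes, *Sox2* with 7, *Klf4* with 6, *Pou5f1* and *Myc* with 4 each, and *Nanog* with 0, and 4.06% of all 2 kb windows held one. With tags left unmoved, a bin of 9 KDM2A and 3 input tags 651 to 900 bp downstream of the *Nanog* start was called (adjusted p = 0.00653, exact Poisson test), so the 0 at *Nanog* depends on the movement of tags. No bin within 5 kb of any of the genes was called in the exchanged comparison. Shares of genome bins and windows here and above are over all DNA with tags, and no share over promoters alone was computed. The paper reports KDM2A at the great majority of CpG islands at start sites. These shares therefore do not tell whether the 5 genes differ from other promoters.

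**Figure D3:**
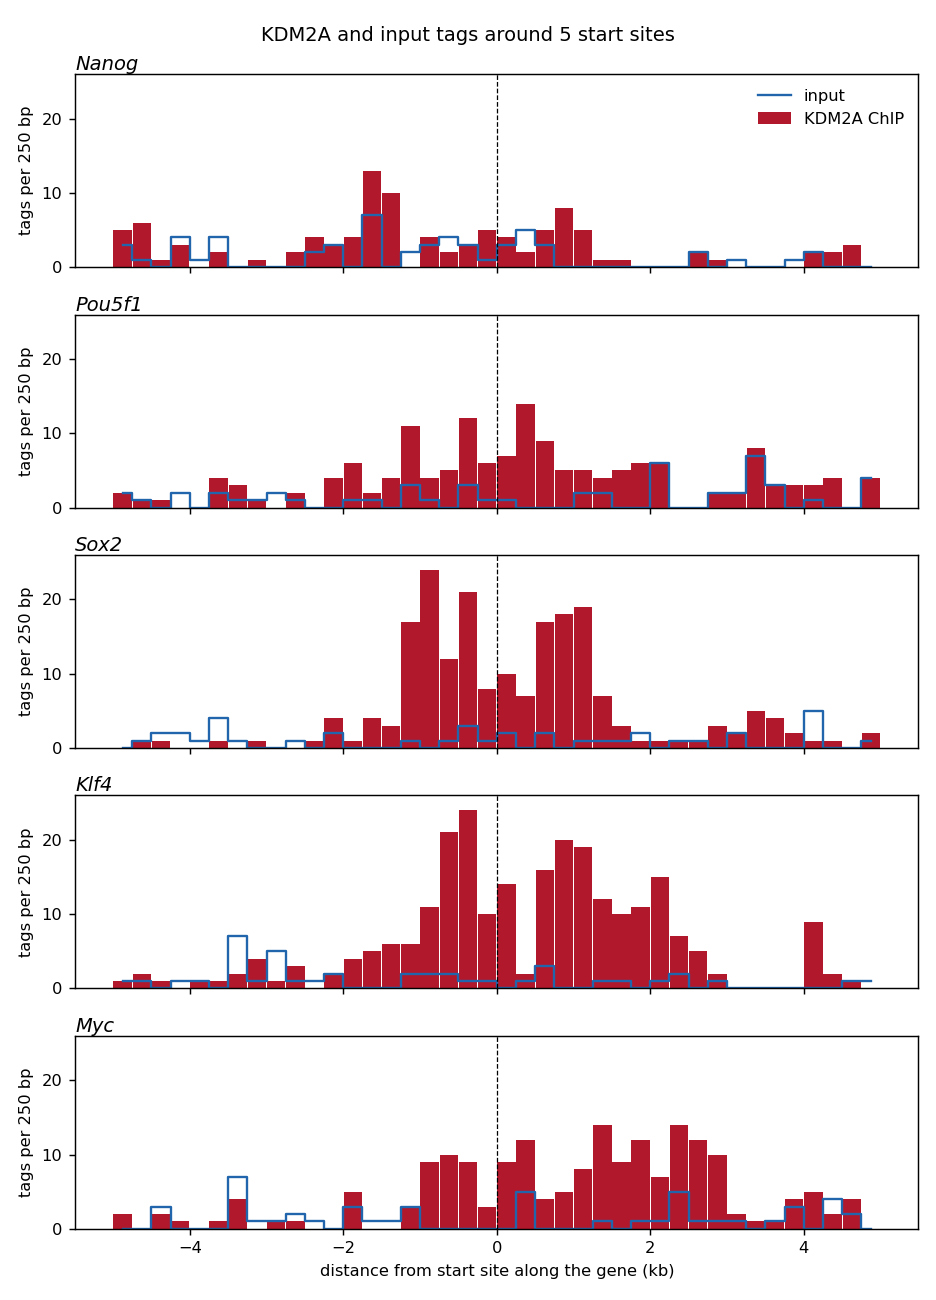
KDM2A (red bars) and input (blue line) tags per 250 bp bin against the distance from the start site along each gene, in kb. KDM2A forms 2 shoulders beside the start of *Sox2*, a block that runs past the start into *Klf4* and *Myc* and a low rise at *Pou5f1*. Over the start of *Nanog*, KDM2A counts are low and lie beside raised input counts.

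At *Sox2*, a gene of a single exon, KDM2A formed a block centred on the start. The cluster ran from chr3:34547501 to 34550250, 1399 bp upstream to 1350 bp downstream, and held 161 KDM2A tags and 12 input tags. Its height was 28 tags and its lowest adjusted p was 5.81e-27 (exact Poisson test). Among the 43912 clusters of the genome, 10.0% were at least as tall and 2.20% at least as wide as its 2750 bp. The tags were not highest at the start itself. In bins counted from the start, KDM2A reached 24 tags from 1000 to 750 bp upstream and 19 tags from 1000 to 1250 bp downstream, whereas the 3 bins from 250 bp upstream to 500 bp downstream held 8, 10 and 7 tags. Density within 250 bp of the start was 36.0 tags per kb, compared with 66.0 per kb from 250 to 1000 bp on either side, a ratio of 0.545 (95% exact interval 0.311 to 0.907). This comparison was chosen after the profiles were seen, and the intervals of the other 4 genes held 1, with ratios from 0.735 at *Myc* to 1.13 at *Nanog*. Input density in the same places at *Sox2* was 6.0 and 4.0 tags per kb.

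At *Klf4*, KDM2A covered the start and extended into the gene. The cluster ran from chr4:55543001 to 55546250, from 950 bp upstream to 2299 bp downstream of the start, with 185 KDM2A tags, 13 input tags and a height of 28 tags (lowest adjusted p = 1.83e-25, exact Poisson test). Only 1.29% of all clusters were at least as wide as its 3250 bp. Counted from the start, the tallest bin lay from 500 to 250 bp upstream with 24 tags, and the bins from 750 to 1250 bp downstream held 20 and 19. A single bin between these, from 250 to 500 bp downstream, held only 2 KDM2A tags and 1 input tag. Neither library had a tag from 3000 to 4000 bp downstream. A further bin past that gap, chr4:55541001 to 55541250, 4050 to 4299 bp downstream, was called on its own, with 10 KDM2A tags against 0 in the input (adjusted p = 1.88e-05, exact Poisson test). It was not called when the grid of bins was displaced.

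At *Myc*, KDM2A was spread over the widest cluster of the 5 genes without a tall bin. It ran from chr15:61816001 to 61820000, from 899 bp upstream to 3100 bp downstream, and held 145 KDM2A tags and 15 input tags. Its height was only 14 tags and its lowest adjusted p 1.12e-08 (exact Poisson test). Of all clusters, 0.581% were at least as wide as its 4000 bp and 40.8% at least as tall, and among those at least as wide, 98.8% were at least as tall. It thus lay near the lower edge of height for its width. At the limit of 0.0001 it split into 2 clusters of 1000 bp each, 649 bp upstream to 350 bp downstream and 1601 to 2600 bp downstream, so its width depends on the limit. Per bin it held 9.06 KDM2A tags, compared with 14.6 in the cluster of *Sox2* and 14.2 in that of *Klf4*. Within 5 kb, 27.4% of the KDM2A tags lay upstream of the start (95% Wilson interval 21.5% to 34.2%), compared with 46.9% of the input tags (33.7% to 60.6%).

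The side on which KDM2A extended differed between genes. From 1 to 3 kb away from the start, a distance chosen after the profiles were seen, 86 KDM2A tags were downstream and 10 upstream at *Myc*, so that 89.6% were downstream (95% Wilson interval 81.9% to 94.2%). At *Klf4* they were 81 and 27, or 75.0% (66.1% to 82.2%). At both genes, KDM2A at this distance thus lay mostly downstream. The clusters of *Sox2* and *Pou5f1* also ran past the start, by 1350 and 750 bp. At *Sox2* the tags were 36 downstream and 30 upstream, or 54.5% (42.6% to 66.0%), and at *Pou5f1* 28 and 29, or 49.1% (36.6% to 61.7%), with no side favoured beyond counting error. At *Nanog* the direction was the opposite, with 10 downstream and 36 upstream, or 21.7% (12.3% to 35.6%). The input library at *Nanog* was uneven in the same direction, with 2 tags downstream and 14 upstream, or 12.5% (3.50% to 36.0%), whereas at *Myc* and *Klf4* its downstream shares were 45.5% (26.9% to 65.3%) and 35.3% (17.3% to 58.7%). Within 1 kb, the share of KDM2A tags upstream ranged from 42.4% at *Nanog* to 55.9% at *Klf4*, and the interval held 50% at all 5 genes.

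At *Pou5f1*, KDM2A was present around the start as a low rise. The cluster ran from chr17:35641751 to 35643750, from 1249 bp upstream to 750 bp downstream, with 69 KDM2A tags, 9 input tags and a height of 14 tags (lowest adjusted p = 6.61e-09, exact Poisson test). Of all clusters, 5.82% were at least as wide as its 2000 bp, and of these 96.2% were at least as tall. The 8 bins it spans held 8.63 KDM2A tags each on average, a density close to that of the cluster at *Myc*. Bins counted from the start held 11 tags from 1250 to 1000 bp upstream, 12 from 500 to 250 bp upstream and 14 from 250 to 500 bp downstream, each over 0 to 3 input tags. The bin that contains the start was not called on its own at *Pou5f1* (adjusted p = 0.233, exact Poisson test) or *Myc* (0.0865), but was called at *Sox2* (1.97e-06) and *Klf4* (2.79e-07).

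At *Nanog*, no cluster covered the start, and the bin that contains it had an adjusted p of 1 (exact Poisson test). The 8 bins counted within 1 kb held 2 to 8 KDM2A tags and 0 to 5 input tags. These ranges overlapped, as they also did at *Myc* (3 to 12 and 0 to 5) and *Klf4* (2 to 24 and 0 to 3). KDM2A density within 1 kb of the *Nanog* start was 16.5 tags per kb, against 7.72 in the flanks. Input density was 11.0 against 5.44, so both libraries held more tags here than in the flanks. Of the 22 input tags, 6 lay on the strand of the gene and 16 on the other. A pair of single bins was called beside the start, one at chr6:122655751 to 122656000, 1849 to 1600 bp upstream, with 13 tags in the KDM2A library against 2 in the input (adjusted p = 9.95e-05, exact Poisson test), and one at chr6:122658501 to 122658750, 901 to 1150 bp downstream, with 11 and 0 tags (adjusted p = 0.000134, exact Poisson test). Both are of ordinary height, since 45.9% and 61.4% of all clusters were at least as tall. In bins counted from the start, which cut the same tags elsewhere, the upstream site held 13 KDM2A and 7 input tags next to a bin of 10 and 0. The downstream bin was not called at a limit of 0.0001.

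**Figure D4:**
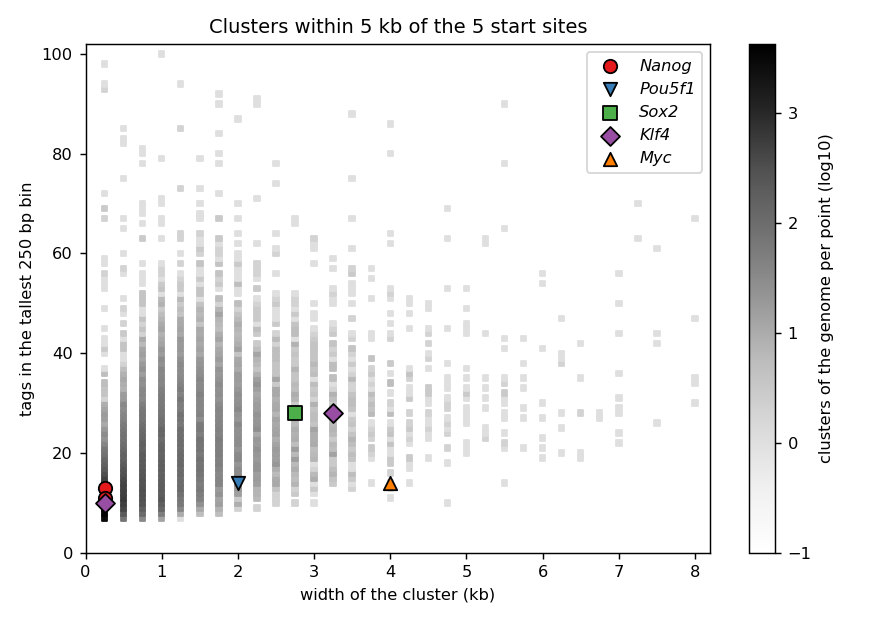
Height (tags in the tallest 250 bp bin) against width (kb) of the called clusters, with the clusters within 5 kb of the 5 start sites as coloured symbols and the number of clusters of the genome at each point in grey (48 clusters beyond 100 tags or 8 kb are not drawn). The cluster of *Myc* is the widest at 4 kb and sits at the lower edge, and those of *Nanog* are single bins.

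The order of the genes was little altered by copies of the same position. Within 1 kb, the KDM2A tags lay at 107 positions and strands at *Klf4*, 109 at *Sox2*, 60 at *Pou5f1*, 61 at *Myc* and 32 at *Nanog*, and no position held more than 2 of them. The input tags lay at 7, 7, 5, 4 and 18 positions. With each position and strand counted once, all 7 clusters within 5 kb were called again, and the ratio relative to the flanks was 15.0 at *Myc*, 11.7 at *Klf4*, 10.0 at *Sox2*, 4.30 at *Pou5f1* and 1.03 at *Nanog*. The KDM2A tags were balanced over the strands, with 59 on each at *Klf4* and 54 on the strand of the gene and 63 on the other at *Sox2*.

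The flanks held other clusters around every gene. In the 100 kb of flanks, 1 further cluster was called at *Myc*, 3 at *Klf4*, 6 at *Sox2*, 6 at *Nanog* and 13 at *Pou5f1*, compared with a mean of 1.73 per 100 kb across the genome. At the limit of 0.0001 the flank clusters fell from 29 to 15, with 1 at *Myc*, 2 at *Klf4*, 3 at *Sox2*, 3 at *Nanog* and 6 at *Pou5f1*, and the mean of the genome was 0.993. At *Myc* and *Klf4* no flank cluster was wider than 500 bp. The cluster in the flank of *Myc* was a single bin, chr15:61869251 to 61869500, 52351 to 52600 bp downstream, with 17 KDM2A tags and 0 input tags. At *Klf4* the tallest were chr4:55527751 to 55528250, 17050 to 17549 bp downstream, with 27 KDM2A tags, 1 input tag and a height of 18, and chr4:55493251 to 55493750, 51550 to 52049 bp downstream, with 26 and 11 tags and a height of 13, so that input was also high at the second.

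Around *Sox2*, the tallest flank clusters were chr3:34541251 to 34541750, 7649 to 7150 bp upstream, with 26 KDM2A tags, 2 input tags and a height of 18, and chr3:34562251 to 34563500, 13351 to 14600 bp downstream, with 58 and 3 tags and a height of 16. Around *Nanog*, they were chr6:122678501 to 122678750, 20901 to 21150 bp downstream, with 16 KDM2A and 5 input tags, and chr6:122617001 to 122618250, 40599 to 39350 bp upstream, with 45 and 13 tags and a height of 12, a height shared with a single bin 37349 to 37100 bp upstream. The first of these was therefore taller than either bin called beside the *Nanog* start. Its 16 tags lie within the exact Poisson interval of a count of 13 (6.92 to 22.2), the taller of those bins. In gene order, which was read from GRCm38.p6 for names alone, *Nanog* lies between *Dppa3*, another gene expressed in pluripotent cells, and *Slc2a3*, which encodes a glucose transporter.

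*Pou5f1* has the major histocompatibility gene *H2-Q10* before it and *Tcf19*, *Cchcr1*, *Psors1c2* and *Cdsn* after it. Of its 13 flank clusters 12 were downstream. The tallest was chr17:35692001 to 35693250, 49001 to 50250 bp downstream, with 90 KDM2A tags, 5 input tags and a height of 21, and the next chr17:35652751 to 35654250, 9751 to 11250 bp downstream, with 71 and 14 tags and a height of 19. Both were taller than the cluster at the *Pou5f1* start, whose height was 14. The exact Poisson interval of a count of 14 (7.65 to 23.5) holds both heights, and the 2 were picked as the tallest of 13. The single upstream cluster, named after its values were seen, was as wide as that at the start (2000 bp) and held 96 KDM2A and 13 input tags. Neither library had a tag in 15 of the 100 flank windows of 1 kb, 12 of them in a row at the far upstream end, so the flank density at *Pou5f1* rests on less sequence than the 100 kb it spans. The share of KDM2A tags does not depend on these empty windows.

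**Figure D5:**
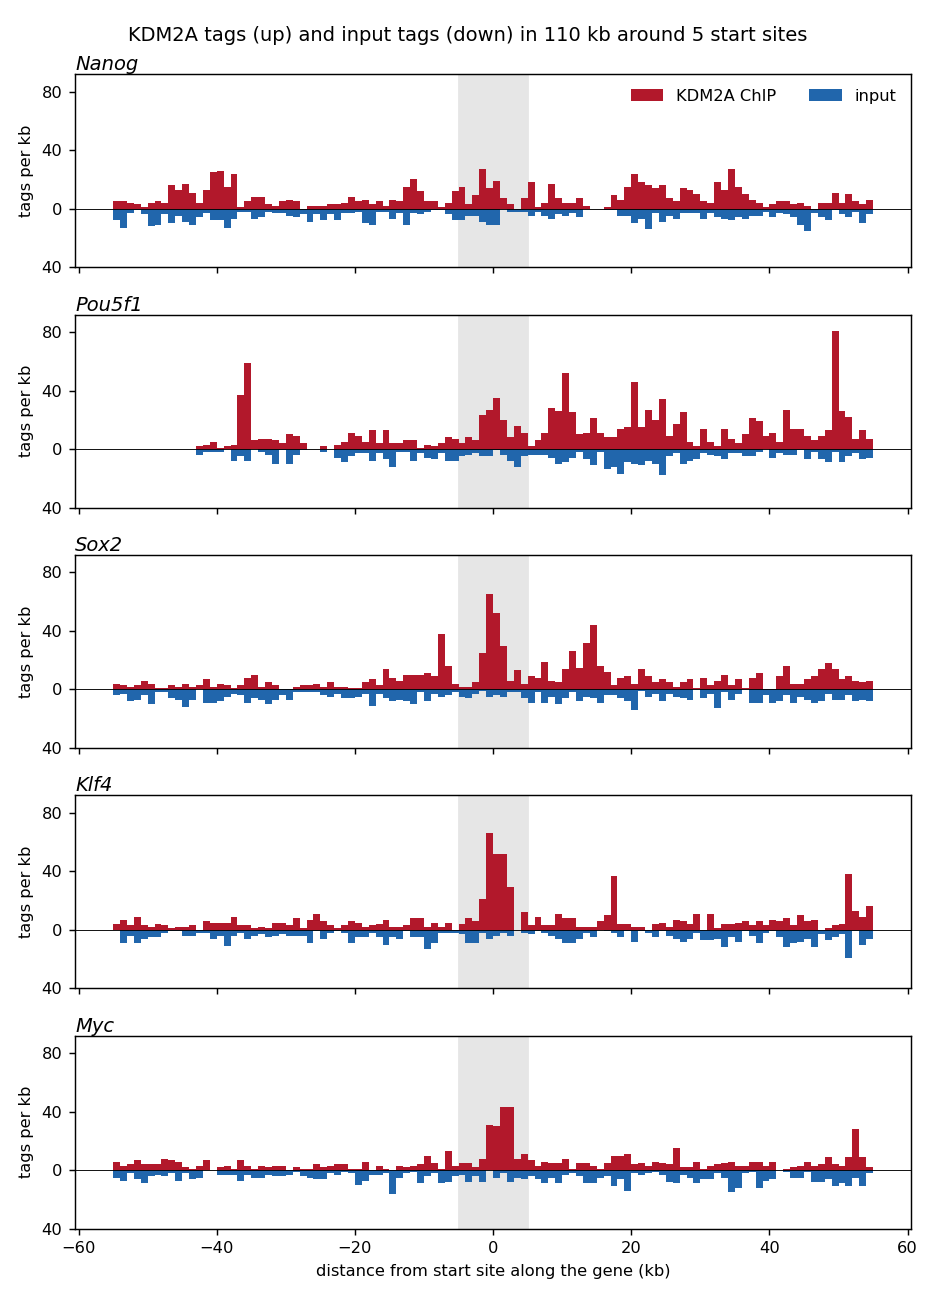
KDM2A tags (red, upward) and input tags (blue, downward) per kb from 55 kb upstream to 55 kb downstream of each start site, with the 5 kb on either side shaded. The highest windows lie within 5 kb of the start at *Klf4*, *Sox2* and *Myc*, for *Myc* downstream of the start, whereas around *Pou5f1* other windows reach up to 81 KDM2A tags per kb.

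The order of KDM2A at the 4 genes with a promoter in the table was that of their CpG counts, with 118 tags within 1 kb and 40 CpGs at *Klf4*, 117 and 27 at *Sox2*, 62 and 11 at *Pou5f1* and 33 and 4 at *Nanog*. *Klf4* and *Sox2* were tied in tags within counting error, and their order turned with each position and strand counted once (107 and 109). With 4 genes no correlation was computed. The tags cover 2 kb in mm9 and the CpGs 300 bases in GRCm38.p6, DNA methylation was not measured in these libraries, and its part in the order was not tested.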

How the data were processed

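The authors sequenced KDM2A ChIP DNA and input DNA from mouse ESCs, each amplified by 18 cycles of PCR, and, per the submitters' processing notes, aligned the reads to mm9 with Bowtie. The version and settings are not given in the sources used here. They deposited, for every genomic position and strand with a read, the count of its tags, not normalized. Nothing was removed from these counts. Whether the recorded position of a minus-strand tag is the 5′ end of the read is not stated.

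Tags were moved by 50 bp, and bins of 250 bp were counted in all 10 kb blocks with a tag. Input was multiplied by 1.03 for the calls, the ratio of total tags. Calls followed the Poisson test described above, and were tested on simulated tags. Ratios relative to the flanks are conditional odds ratios. Tools were Python 3.11.15, numpy 2.4.6, scipy 1.17.1, pandas 2.3.3 and matplotlib 3.10.9. RefSeq tables of GRCm38.p6 gave strands, promoter sequences and gene order, and matched 4 of the 5 genes for promoters. The strand of *Myc* was taken from general knowledge.

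The 5 genes, the list of network genes and the tests were chosen with earlier results of these data known. By the rule for naming, the 5 genes and the 2 tallest flank clusters of each were given. Alternatives covered copies, tag movement, bins, limits, windows and flanks. Comparisons added after the profiles were seen are named as such.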

Additional observations from a re-analysis of the deposited data

How the results depend on the processing

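No paired analysis was possible because each group has 1 library. Of 155 values computed under alternatives for 45 results, 132 kept their direction and stayed within their interval, or within 1.5 times for a count. Depth sets the width of all intervals, since they cover counting error only. Windows of 2 kb held 5 to 22 input tags, and these low counts widen the intervals of the KDM2A to input ratios.

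Called bins within 5 kb fell from 2 to 1 at *Nanog*, from 5 to 3 at *Pou5f1* and from 13 to 4 at *Myc* at an adjusted p limit of 0.0001. With a displaced grid there were 8 at *Pou5f1*. With 500 bp bins there were 6 at *Sox2* and 8 at *Myc*, as fewer bins fit in the window. The ratio relative to the flanks was lower within 5 kb than within 1 kb at *Pou5f1* (1.35), *Sox2* (4.15), *Klf4* (5.66) and *Myc* (4.53). At *Nanog* it was 1.33 within 5 kb against 1.06 within 1 kb. The reason for these differences was not tested. With flanks free of clusters, the 5 kb ratio of *Pou5f1* was 2.34. The ratio of *Nanog* turned below 1 within 500 bp (0.822, interval 0.35 to 1.96) and with 25 kb flanks (0.957, interval 0.527 to 1.77), and every alternative interval of its 1 kb ratio held 1.

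Within 5 kb the share of KDM2A tags upstream was 65.4% at *Nanog*, 42.0% at *Klf4* and 27.4% at *Myc*, against 42.4%, 55.9% and 50.8% within 1 kb. With tags above the flank density only, the ratio was 2.67 for *Klf4* over *Pou5f1*, 6.12 for *Klf4* over *Nanog*, 5.83 for *Sox2* over *Nanog* and 2.98 for *Myc* over *Nanog*, and it turned to 0.768 for *Pou5f1* over *Myc*. The flank density of KDM2A was 10.9 tags per kb at *Pou5f1* and 4.37 at *Myc*. With 1 tag per position and strand the ratio turned to 0.982 for *Klf4* over *Sox2* and 0.984 for *Pou5f1* over *Myc*. These are the pairs whose interval held 1. The cause was not tested.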
